A study of Mus musculus with 16 samples.

Results

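The genes described here carry cells through mitosis, the separation of copied chromosomes, and through cytokinesis, the splitting of the cell in 2. They are 49 genes chosen by name for these roles, found in the count table through their Ensembl gene IDs, out of 22468 genes in all. All 49 were in the table and all 49 were among the 13412 genes with enough reads to be tested. Messenger RNA was sequenced from whole ventricles of neonatal mice, taken above and below the site of ligation, in 4 groups of 4 libraries. KO MI and KO sham were mice lacking Chrna7 (Jax stock 003232), which encodes the alpha 7 subunit of nicotinic receptors for acetylcholine, after myocardial infarction (MI) and after sham surgery. WT MI and WT sham were wild-type mice after the same operations. Infarction was made by tying off a coronary artery, and sham surgery leaves the artery open. The labels give neither the age in days, the sex, the litter, the extent of the deletion nor whether each library was a separate animal, so the p-values measure only the spread between these libraries.

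In a dividing cell, cyclin B and Cdk1 form the kinase that starts mitosis, the kinetochores built on each centromere attach the chromosomes to spindle fibres, and a checkpoint holds the cell back until all are attached. The anaphase-promoting complex then marks the cyclins and the guards of chromosome cohesion for destruction, and a contractile ring at the cell's midline completes cytokinesis. Heart muscle cells of the newborn mouse still divide for a short time after birth, after which most copy their DNA or divide their nucleus without cytokinesis. Blood, endothelial, fibroblast and epicardial cells in the ventricle divide as well, and in RNA from whole tissue fewer dividing cells and less RNA per dividing cell cannot be told apart.

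Levels are given in CPM, the read count of a gene scaled to the TMM-adjusted total of its library. Between 10711442 and 17223580 reads per library were assigned to genes. The lowest count of any of the 49 genes in any library was 66 reads. Chrna7 itself had 2 to 4 reads per library in KO MI, 0 to 2 in KO sham, 0 to 2 in WT MI and 0 to 2 in WT sham, too few to check the genotype labels. All 9 cardiomyocyte markers were detected in every group, with a summed level between 52406 and 92346 CPM per library. The KO sham libraries stood apart on the first principal component of all tested genes, with scores of 27.9 to 31.6 against -28.9 to 0.973 in the other 12 libraries. The same KO sham libraries serve 3 comparisons, KO MI against KO sham, KO sham against WT sham and the interaction.

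Summed over the 49 genes, the level was lowest in KO sham. The sum was 2416 ± 339 CPM in KO MI, 1882 ± 79.1 CPM in KO sham, 2539 ± 542 CPM in WT MI and 2316 ± 149 CPM in WT sham (mean ± SD, n = 4 each). The 4 KO MI libraries lay between 2073 and 2883 CPM and the 4 KO sham libraries between 1778 and 1946 CPM, without overlap. WT MI ranged from 2028 to 3274 CPM and WT sham from 2131 to 2485 CPM, and these groups overlapped. KO sham had the lowest mean of the 4 groups for 45 of the 49 genes, and WT MI the highest for 37. WT MI replicate 2 was the highest of all 16 libraries for 42 genes and KO sham replicate 3 the lowest for 17. The genes moved largely together across the libraries: 1 principal component held 76.5% of their variance, with 48 of 49 genes loading in the same direction.

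**Figure D1:**
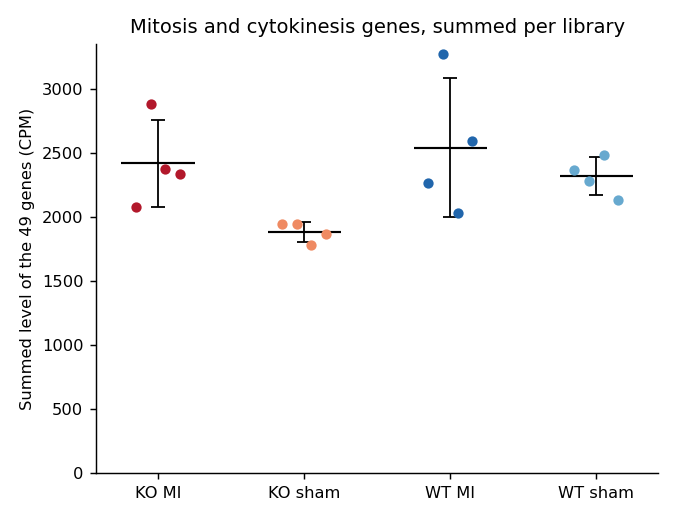
Summed level of the 49 genes (vertical axis, CPM) in each library, by group. Points are libraries, the horizontal bar is the mean and the vertical bar the SD of 4; the KO MI libraries span 2073 to 2883 CPM and the KO sham libraries, the lowest of all 16, 1778 to 1946 CPM.

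**Figure D2:**
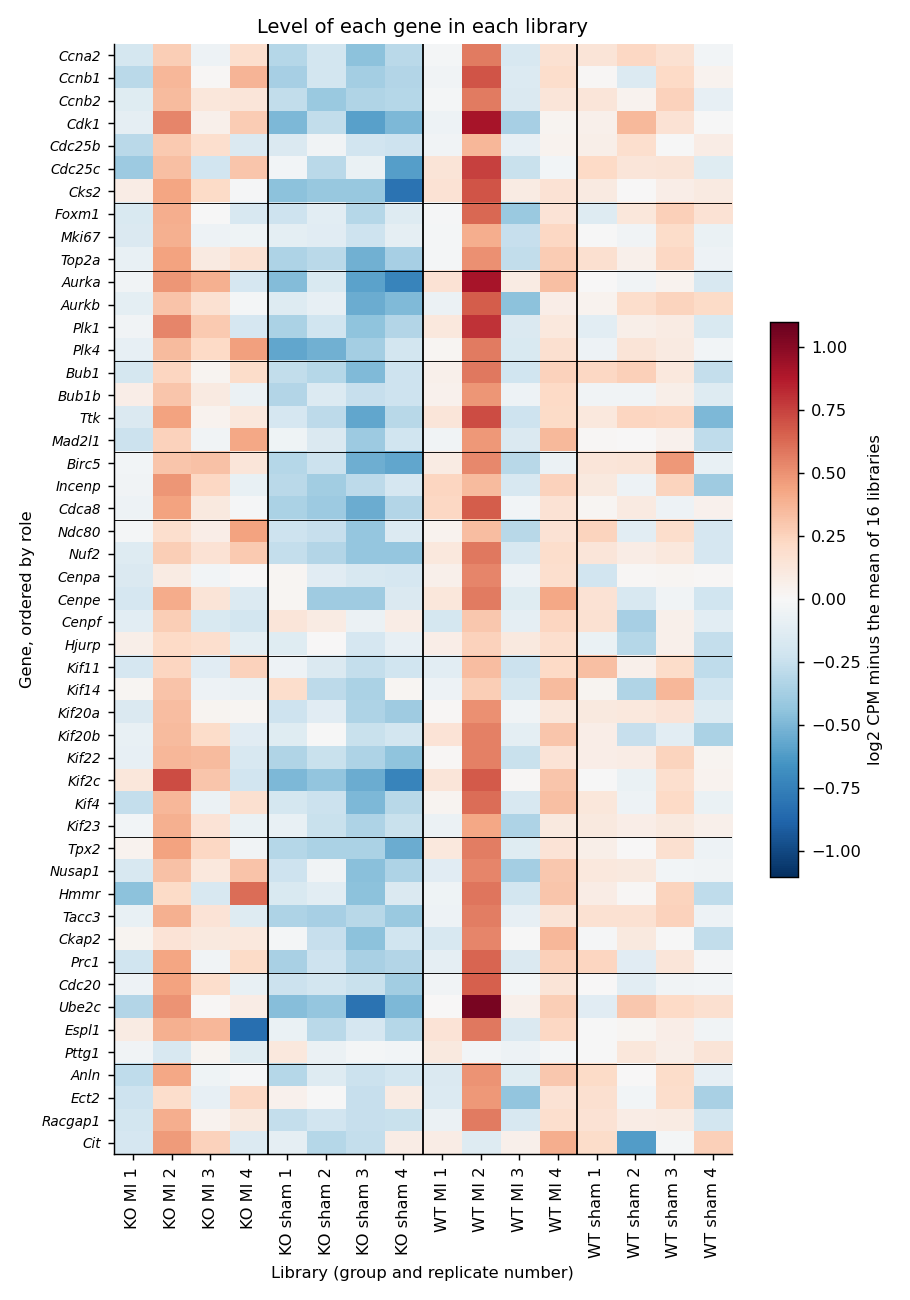
Level of each gene (vertical axis, ordered by role) in each of the 16 libraries (horizontal axis), as log2 CPM minus the gene's mean over all libraries. Most genes are below their mean (blue) in the 4 KO sham libraries, and WT MI replicate 2 is the highest library for 42 of 49 genes.

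Between genes, levels were compared per kilobase of the longest annotated transcript. Cks2, a small protein that binds Cdk1, was the highest at 43.8 CPM per kb over all 16 libraries, followed by Cdc20 at 41.0, Ccnb2 at 33.7 and Top2a at 29.6 CPM per kb. The lowest were the citron kinase Cit, at 1.63 CPM per kb, and the kinesin Kif14, at 0.843 CPM per kb. The order at the top differed by group: in KO sham, Cdc20 averaged 33.6 and Cks2 29.8 CPM per kb.

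The upstream sequences are shown because genes of late cell division are known to share short promoter elements that the choice of genes did not use. The CHR element is read by MuvB complexes, which repress such genes in resting cells as DREAM and activate them in dividing cells together with B-Myb and FoxM1. CCAAT boxes are bound by the factor NF-Y. RefSeq promoter windows of build GRCm38.p6, from 250 bases before to 50 bases after a transcript start, were matched by symbol for 42 of the 49 genes (44 windows). The RefSeq table as a whole held 32851 windows of 27025 genes, more genes than the count table. Aurkb, Ccna2, Cdc25c, Foxm1, Incenp, Kif20a and Tpx2 had no entry. The 150 bases before the start are printed for 5 of the 6 genes with the smallest p in KO MI against KO sham among those with a window and, chosen after the matches were seen, for Cdk1 and Ube2c. The strand is that of the gene, read 5′ to 3′. Capitals mark matches on either strand to TTTGAA or TTCGAA (CHR) and to CCAAT, so TTCAAA and ATTGG are the same elements on the other strand. The Cks2 stretch is chr13:51645082-51645231, plus strand; that of Plk4 is chr3:40799801-40799950, plus strand; that of Cdca8 is chr4:124936918-124937067, minus strand. Top2a is shown from chr11:99024190-99024339, minus strand, and its last 10 bases lie within the annotated gene. Birc5 is shown from chr11:117849087-117849236, plus strand, Cdk1 from chr10:69352913-69353062, minus strand, and Ube2c from chr2:164769779-164769928, plus strand.
Cks2: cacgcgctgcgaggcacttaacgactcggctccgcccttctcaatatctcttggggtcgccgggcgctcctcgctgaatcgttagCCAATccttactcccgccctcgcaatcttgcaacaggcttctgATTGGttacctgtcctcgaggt
Plk4: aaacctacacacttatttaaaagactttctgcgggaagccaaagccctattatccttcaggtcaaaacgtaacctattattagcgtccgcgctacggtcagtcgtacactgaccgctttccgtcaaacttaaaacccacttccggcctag
Cdca8: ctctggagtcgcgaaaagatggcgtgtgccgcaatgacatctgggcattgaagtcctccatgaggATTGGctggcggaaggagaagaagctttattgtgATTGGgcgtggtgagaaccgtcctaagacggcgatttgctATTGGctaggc
Top2a: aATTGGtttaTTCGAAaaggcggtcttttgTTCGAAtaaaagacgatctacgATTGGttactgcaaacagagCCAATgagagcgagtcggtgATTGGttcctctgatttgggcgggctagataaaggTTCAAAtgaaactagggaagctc
Birc5: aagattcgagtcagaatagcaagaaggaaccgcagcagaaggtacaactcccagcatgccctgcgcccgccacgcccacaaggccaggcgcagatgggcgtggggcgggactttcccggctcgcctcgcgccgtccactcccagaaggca
Cdk1: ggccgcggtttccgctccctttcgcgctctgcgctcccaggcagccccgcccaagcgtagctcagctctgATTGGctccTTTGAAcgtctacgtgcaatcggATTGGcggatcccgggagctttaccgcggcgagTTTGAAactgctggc
Ube2c: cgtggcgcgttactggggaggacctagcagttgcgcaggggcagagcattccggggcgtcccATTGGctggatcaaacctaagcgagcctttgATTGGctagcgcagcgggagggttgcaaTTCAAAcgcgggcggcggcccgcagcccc

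The 7 stretches differ in what they hold. Top2a has 3 CHR matches and 4 CCAAT matches, Cdk1 has 2 of each, and Ube2c has 1 CHR match, 29 bases before the start, with 2 CCAAT matches. Cks2 and Cdca8 have 2 and 3 CCAAT matches with no CHR match in the printed bases, and Cdca8 has a CHR match 14 bases past the start. Plk4 and Birc5 have no match to these letters anywhere in their windows. The window of Kif2c, the sixth, begins 3852 bases from the annotated gene start, inside the gene, and is not printed.

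Over all windows of the 49 genes, TTTGAA was in 70.5%, against 11.8% of the windows of all tested genes and 17.9% of all windows in the RefSeq table. TTCGAA was in 9.09%, against 2.01% and 1.56%, and CCAAT in 72.7%, against 37.4% of the windows of tested genes and 37.4% of all. A CHR match of either form together with CCAAT was in 65.9%, against 5.57% of the windows of tested genes and 7.53% of all windows. In the member windows 1 CHR match shared bases with a CCAAT match. Windows within 15 bases of the annotated gene start numbered 27, and 66.7% of them had a CHR match of either form. Such a match was in 70.6% of the windows of the genes that rose in KO MI against KO sham and in 77.8% of the windows of the other members. Of 45 CHR matches in the member windows, 31 lay within 50 bases of the start. These are matches of letters in a fixed window, given as a description.

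Infarction against sham in knockout asks how division genes stand after injury in hearts without the receptor. Of the 49 genes 19 rose and none fell (edgeR quasi-likelihood test, Benjamini-Hochberg adjusted p under 0.05 over all tested genes), where 8.54% of all tested genes rose and 16.6% were called in either direction. The log2 fold change was positive for 47 of the 49, with a median of 0.38, against 0.01 over all tested genes. The changes were small, between 1.27-fold for Bub1b and 1.76-fold for Kif2c among the 19. For 25 genes all 4 KO MI libraries lay above all 4 KO sham libraries, a separation shown by 11.4% of tested genes. Without KO MI replicate 2, the highest KO MI library by summed level, 8 genes were called. All 8 were among the 19, namely Cks2, Top2a, Plk4, Birc5, Cdca8, Nuf2, Kif2c and Tpx2, and these 8 were called whichever of the 8 libraries was left out (the leave-one-out fits). Without KO MI replicate 1, 27 genes were called, and without the 3 libraries with few Y-linked reads, described below, 16, of which 13 were among the 19. The share of all tested genes called in these fits is not given here. Whether the changes in count are particular to the 49 genes was not tested.

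Knockout against wild type after sham asks whether hearts without infarction differ between the genotypes. Both groups were operated on and no unoperated group was sequenced, so a difference at rest and one in the response to sham surgery cannot be told apart. Of the 49 genes 13 fell in KO sham and none rose, where 7.74% of all tested genes fell and 15.3% were called in either direction. The log2 fold change was negative for 46 of the 49, with a median of -0.31, against -0.01 over all tested genes. For 27 genes all 4 KO sham libraries lay below all 4 WT sham libraries, as for 12.3% of tested genes. Leaving out single libraries lowered the count to between 3 and 11, lowest without WT sham replicate 3, and Cks2 and Tacc3 were called in all 8 of these fits. WT sham replicate 1, KO sham replicate 2 and KO MI replicate 1 hold 20 to 40 reads of 4 Y-linked genes, against 1571 to 3450 in the other 13 libraries, and the labels give no sex. Without these 3 libraries, 3 genes were called, namely Cks2, Birc5 and Ube2c. As above, the share of all tested genes called in these fits is not given here. None of the 13 was called in all alternatives run, while 7 of the 19 called in KO MI against KO sham were. The plot of fold changes gives every gene in both comparisons.

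Markers of other cell types also differed between the groups, some in the direction of the division genes and some in the other. Summed over 7 erythroid markers, the level was 1124 to 1859 CPM per library in KO MI, 991 to 1407 in KO sham, 1711 to 2116 in WT MI and 2966 to 4731 in WT sham. All 7 fell in KO sham against WT sham, and 3 of 7 rose in KO MI against KO sham. The 5 epicardium markers summed to 26.5 to 76.5 CPM in KO MI, 17.1 to 22.5 in KO sham, 24.9 to 52.6 in WT MI and 71.1 to 111.2 in WT sham. All 5 rose in KO MI against KO sham, and all 5 fell in KO sham against WT sham. Of 8 leukocyte markers, 5 rose in KO MI against KO sham, summing to 107 to 181 CPM in KO MI, 84.1 to 96.3 in KO sham, 79.8 to 126 in WT MI and 61.9 to 75.3 in WT sham. Of 7 endothelium markers 2 rose in KO sham against WT sham and none was called in KO MI against KO sham, and of 9 cardiomyocyte markers 2 fell in KO MI against KO sham and 1 fell in KO sham against WT sham. The 5 smooth muscle and pericyte markers summed to 384 to 468 CPM in KO MI, 506 to 536 in KO sham, 356 to 477 in WT MI and 348 to 421 in WT sham, so that this sum was highest in KO sham, without overlap. In KO MI against KO sham Tagln rose (log2 0.80) while Pdgfrb (-0.50) and Rgs5 (-0.49) fell, and in KO sham against WT sham Tagln fell (-0.86) while Pdgfrb (0.68) and Rgs5 (0.91) rose. Of 7 fibroblast markers Tcf21 rose (0.55) and Pdgfra fell (-0.55) in KO MI against KO sham, and Pdgfra rose (0.73) and Tcf21 fell (-0.35) in KO sham against WT sham. None of these markers was at 0 in any group. The part of these cells in the division genes' values was not tested.

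**Figure D3:**
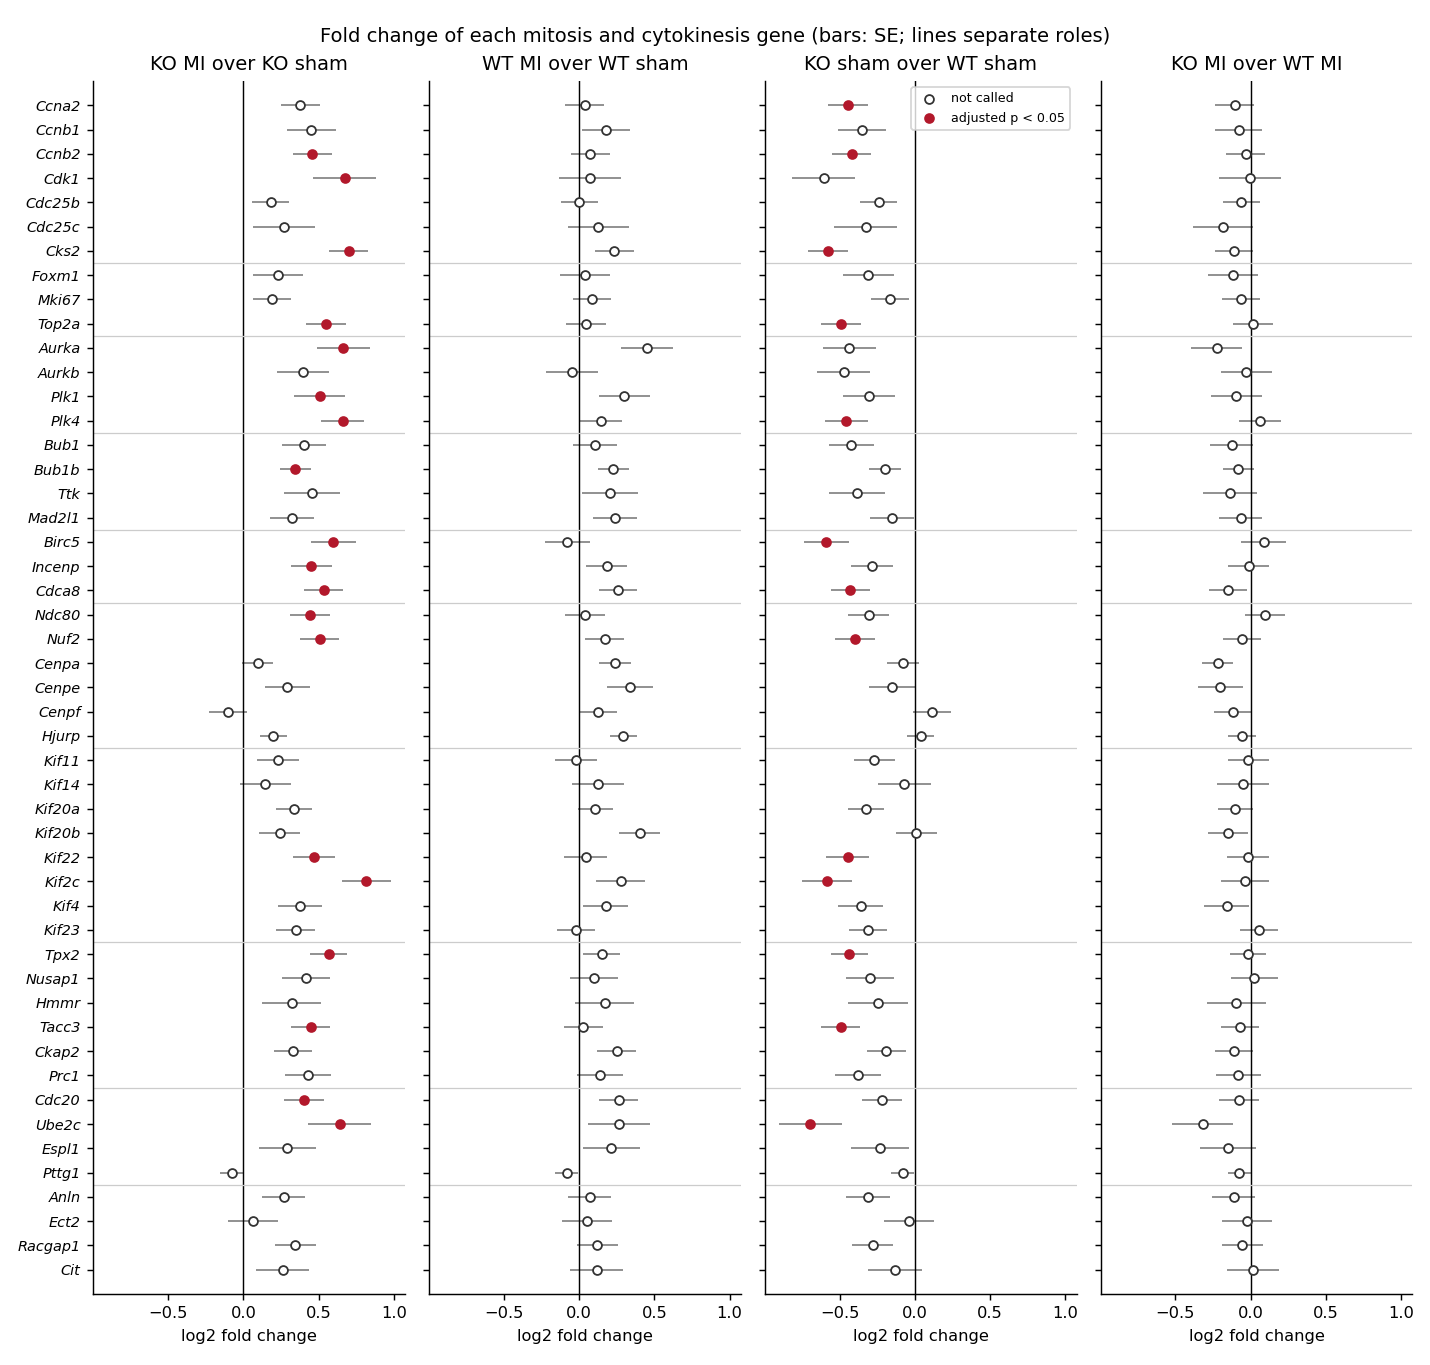
Log2 fold change (horizontal axis) of each of the 49 genes (vertical axis, ordered by role) in 4 comparisons, with its standard error as a bar. Filled points passed an adjusted p of 0.05: 19 for KO MI over KO sham, all to the right of 0, 13 for KO sham over WT sham, all to the left, and none in the other panels.

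Among the cyclins, Cdk1 and its activators, 3 of 7 rose in KO MI and 3 of 7 fell in KO sham against WT sham. Cks2 stood at 31.2, 39.9, 34.1 and 29.2 CPM in KO MI and at 21.6, 22.1, 22.1 and 16.8 CPM in KO sham. For Cks2, WT MI gave 32.9, 47.5, 31.4 and 32.9 CPM and WT sham 31.5, 29.5, 31.1 and 31.5 CPM. All KO MI values lay above all KO sham values, and all KO sham values below all WT sham values. Cks2 rose 1.62-fold in KO MI against KO sham (log2 0.70 ± 0.13, adjusted p = 0.00174; SE, n = 4 per group here and below). Cks2 was lower in KO sham than in WT sham (log2 -0.58 ± 0.13, adjusted p = 0.00616). Both calls ended with a fit adjusted for the GC content and length of each transcript (log2 0.40 and -0.39), 1 of 12 other settings tried (scalings, filters, tools, corrections and subsets of libraries).

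Ccnb2 stood at 46.3, 64.8, 55.4 and 55.6 CPM in KO MI and at 42.1, 38.4, 40.4 and 40.8 CPM in KO sham. For Ccnb2, WT MI gave 49.9, 75.6, 45.4 and 55.7 CPM and WT sham 55.6, 52.2, 60.6 and 47.7 CPM. Ccnb2 encodes cyclin B2, a partner of Cdk1, and its KO sham values lay below those of all other libraries. Ccnb2 was higher in KO MI than in KO sham (log2 0.46 ± 0.13, adjusted p = 0.0209), a call that ended without replicate 2 (0.43) or 4 (0.46) of KO sham or without replicate 2 of KO MI (0.38) and with the length and GC correction, alone (0.28) or with a replicate block (0.27). Against WT sham it was lower in KO sham (log2 -0.42 ± 0.13, adjusted p = 0.0352), a call lost in 7 of the 8 leave-one-out fits (range -0.47 to -0.36) and in 3 of 12 other settings.

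Ccna2 stood at 53.4, 73.4, 58.7 and 69.4 CPM in KO MI and at 49.1, 52.9, 44.6 and 49.6 CPM in KO sham. For Ccna2, WT MI gave 60.1, 90.6, 53.9 and 68.7 CPM and WT sham 67.4, 71.4, 68.4 and 59.6 CPM. Ccna2 encodes cyclin A2, which acts from DNA copying into early mitosis. All KO sham values lay below all KO MI and all WT sham values. Ccna2 was lower in KO sham than in WT sham (log2 -0.44 ± 0.13, adjusted p = 0.0270), a call lost in 5 of the 8 leave-one-out fits (range -0.49 to -0.40) and in 1 of 12 other settings. The increase in KO MI did not pass (log2 0.38 ± 0.13, adjusted p = 0.0526), though DESeq2, limma voom and upper quartile scaling were among the alternatives that called it.

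Ccnb1 stood at 39.6, 62.8, 49.1 and 63.00 CPM in KO MI and at 37.9, 42.3, 37.5 and 38.97 CPM in KO sham. For Ccnb1, WT MI gave 47.4, 78.7, 44.03 and 55.7 CPM and WT sham 49.2, 43.96, 56.7 and 50.2 CPM. Ccnb1 encodes cyclin B1, the main partner of Cdk1. KO MI and KO sham overlapped, since KO MI replicate 1 lay within the KO sham range, while all KO sham values lay below all WT sham values. Neither comparison passed (log2 0.45 ± 0.16, adjusted p = 0.0591 for KO MI over KO sham, and log2 -0.35 ± 0.16, adjusted p = 0.142 for KO sham over WT sham). Some alternatives called Ccnb1, among them limma voom and the fit of only the compared groups in both comparisons.

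Cdk1, the kinase itself, whose 2 CHR and 2 CCAAT matches are shown above, ranged from 51.6 to 80.2 CPM in KO MI, 36.5 to 45.8 in KO sham, 43.02 to 103 in WT MI and 55.01 to 70.7 in WT sham. All KO MI values lay above all KO sham values, and WT MI replicate 3 within the KO sham range. Cdk1 rose 1.59-fold in KO MI against KO sham (log2 0.67 ± 0.21, adjusted p = 0.0371), a call lost in 7 of the 8 leave-one-out fits (range 0.55 to 0.76) and in 2 of 12 other settings. Against WT sham the KO sham value did not pass (log2 -0.61 ± 0.21, adjusted p = 0.0596). DESeq2, limma voom and the filter at a mean of 50 counts were among the alternatives that called Cdk1 there, while no leave-one-out fit did. The phosphatases Cdc25b and Cdc25c, which switch Cdk1 on, were not called in either comparison (log2 0.18 and 0.27 in KO MI over KO sham, -0.24 and -0.33 in KO sham over WT sham).

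Of the transcription factor Foxm1 and the proliferation markers Mki67 and Top2a, only Top2a was called. Top2a stood at 143, 206, 163 and 171 CPM in KO MI and at 120.0, 124, 105 and 118 CPM in KO sham. For Top2a, WT MI gave 149, 215, 126 and 184 CPM and WT sham 172, 158, 178 and 146 CPM. Top2a encodes the topoisomerase that untangles copied chromosomes, and its KO sham values lay below those of every other library. Top2a rose 1.46-fold in KO MI against KO sham (log2 0.55 ± 0.13, adjusted p = 0.01004), in all 8 leave-one-out fits (log2 0.45 to 0.63). In KO sham it was lower than in WT sham (log2 -0.49 ± 0.13, adjusted p = 0.0188), a call that ended without WT sham replicate 3 (-0.45) or KO sham replicate 3 (-0.44). That call also ended without the 3 libraries with few Y-linked reads (-0.49).

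Mki67 stood at 189, 276, 203 and 204 CPM in KO MI and at 195, 193, 179.6 and 197 CPM in KO sham. For Mki67, WT MI gave 208, 278, 176 and 247 CPM and WT sham 210.0, 205, 242 and 200.1 CPM. Mki67 encodes Ki-67, the protein most used to stain dividing cells. KO MI replicate 2 and WT MI replicate 2 stood above the rest, KO MI overlapped KO sham, and all KO sham values lay below all WT sham values. Neither difference passed (log2 0.19 ± 0.13, adjusted p = 0.317 for KO MI over KO sham; log2 -0.16 ± 0.13, adjusted p = 0.388 for KO sham over WT sham). Foxm1, which drives many genes of this set, did not pass either (log2 0.23 ± 0.17, adjusted p = 0.359 in KO MI over KO sham; log2 -0.31 ± 0.17, adjusted p = 0.218 in KO sham over WT sham).

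**Figure D4:**
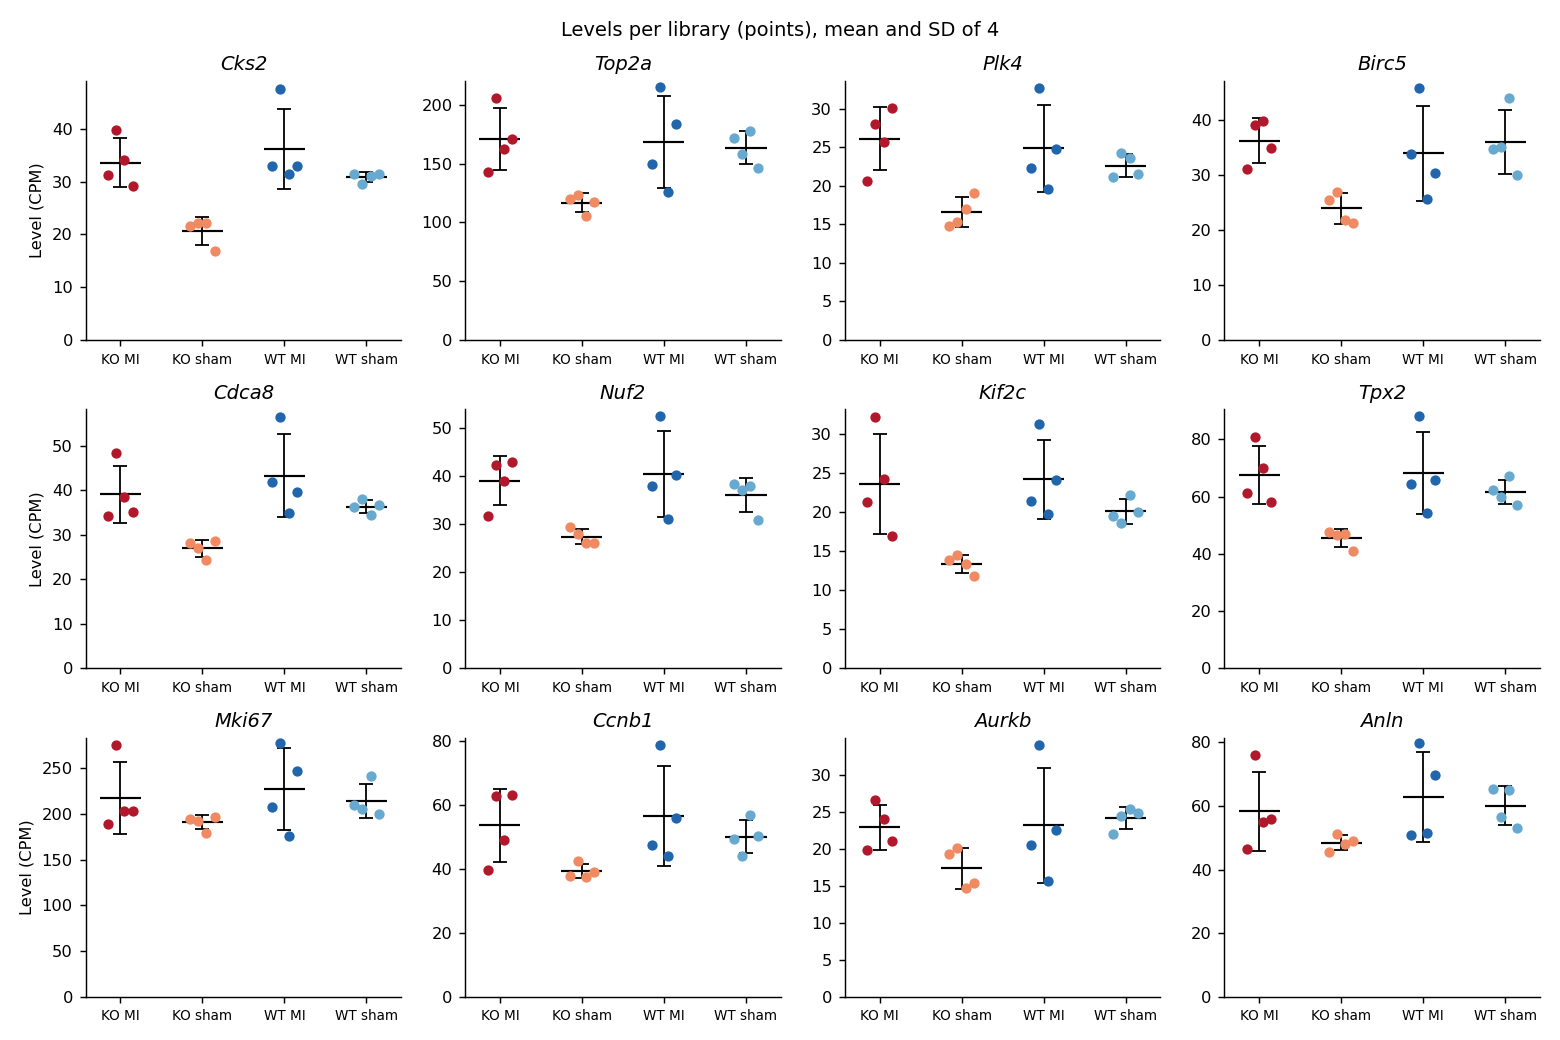
Level (vertical axis, CPM) of 12 genes in each library by group; points are libraries, the horizontal bar is the mean and the vertical bar the SD of 4. In the upper 8 panels, the genes called in KO MI over KO sham in all leave-one-out fits, no KO MI point overlaps the KO sham points. Mki67, Ccnb1, Aurkb and Anln in the lowest panels were not called in any comparison in the main fit.

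Of the 4 mitotic kinases, Aurka, Plk1 and Plk4 rose in KO MI and Plk4 fell in KO sham against WT sham. Plk4 stood at 20.6, 28.00, 25.7 and 30.1 CPM in KO MI and at 14.8, 15.3, 17.04 and 19.1 CPM in KO sham. For Plk4, WT MI gave 22.4, 32.7, 19.6 and 24.8 CPM and WT sham 21.2, 24.2, 23.6 and 21.6 CPM. Plk4 licenses the copying of centrioles, and its KO sham values lay below those of every other library. Plk4 rose 1.58-fold in KO MI (log2 0.66 ± 0.14, adjusted p = 0.00473), in all 8 leave-one-out fits (log2 0.58 to 0.76). Plk4 was lower in KO sham than in WT sham (log2 -0.46 ± 0.14, adjusted p = 0.0377), a call lost in 6 of the 8 leave-one-out fits (range -0.53 to -0.40) and in 1 of 12 other settings.

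Aurka stood at 28.7, 41.4, 38.7 and 25.97 CPM in KO MI and at 21.3, 26.3, 19.6 and 17.8 CPM in KO sham. For Aurka, WT MI gave 32.9, 55.3, 31.4 and 37.1 CPM and WT sham 29.7, 28.8, 30.3 and 26.2 CPM. Aurora A, encoded by Aurka, matures the spindle poles. Here KO MI replicate 4 lay within the KO sham range, so KO MI and KO sham overlapped, as did KO sham and WT sham. Aurka rose 1.58-fold in KO MI (log2 0.66 ± 0.17, adjusted p = 0.0154), a call that ended without replicate 4 of KO sham (0.59) or without replicate 2 (0.55) or 3 (0.59) of KO MI. In KO sham against WT sham it did not pass (log2 -0.43 ± 0.18, adjusted p = 0.0996).

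Plk1 stood at 33.6, 50.03, 42.1 and 30.3 CPM in KO MI and at 27.1, 29.6, 25.3 and 27.6 CPM in KO sham. For Plk1, WT MI gave 37.5, 59.9, 30.9 and 37.3 CPM and WT sham 31.9, 36.01, 36.7 and 30.7 CPM. Plk1 acts at the spindle poles, the kinetochores and the midzone, and its KO sham values lay below those of every other library. Plk1 rose 1.42-fold in KO MI (log2 0.51 ± 0.17, adjusted p = 0.0472), close to the threshold, and the call was lost in 6 of the 8 leave-one-out fits (range 0.36 to 0.61) and in 4 of 12 other settings. Against WT sham KO sham did not pass (log2 -0.30 ± 0.17, adjusted p = 0.234).

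Aurkb stood at 19.9, 26.6, 24.01 and 21.1 CPM in KO MI and at 19.3, 20.1, 14.6 and 15.3 CPM in KO sham. For Aurkb, WT MI gave 20.5, 33.97, 15.7 and 22.5 CPM and WT sham 21.96, 24.4, 25.3 and 24.7 CPM. Aurora B, encoded by Aurkb, is the enzyme of the chromosomal passenger complex. All KO sham values lay below all WT sham values, KO MI and KO sham overlapped, and WT MI held both the highest library and 1 of the 3 lowest. Neither comparison passed (log2 0.40 ± 0.17, adjusted p = 0.119 for KO MI over KO sham, and log2 -0.47 ± 0.17, adjusted p = 0.0704 for KO sham over WT sham). Limma voom and the fit of only the compared groups called Aurkb in both comparisons.

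The other 3 genes of the chromosomal passenger complex, which corrects faulty attachments and later directs cytokinesis, all rose in KO MI, and 2 fell in KO sham against WT sham. Birc5 stood at 31.03, 39.2, 39.8 and 34.9 CPM in KO MI and at 25.5, 26.98, 21.8 and 21.3 CPM in KO sham. For Birc5, WT MI gave 33.8, 45.8, 25.6 and 30.4 CPM and WT sham 34.8, 35.1, 44.03 and 30.1 CPM. Birc5 encodes survivin. KO sham lay below KO MI and below WT sham without overlap, and WT MI replicate 3 was the only wild-type library within the KO sham range. Birc5 rose 1.51-fold in KO MI (log2 0.60 ± 0.15, adjusted p = 0.0118), in all 8 leave-one-out fits (log2 0.55 to 0.66). Birc5 was lower in KO sham than in WT sham (log2 -0.59 ± 0.15, adjusted p = 0.0135), a call that ended without WT sham replicate 3 (-0.48).

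Cdca8 stood at 34.2, 48.4, 38.4 and 35.2 CPM in KO MI and at 28.05, 26.98, 24.4 and 28.5 CPM in KO sham. For Cdca8, WT MI gave 41.8, 56.5, 34.97 and 39.7 CPM and WT sham 36.1, 38.04, 34.4 and 36.7 CPM. Cdca8 encodes borealin, and its KO sham values lay below those of every other library. Cdca8 rose 1.45-fold in KO MI (log2 0.53 ± 0.13, adjusted p = 0.00903), in all 8 leave-one-out fits (log2 0.41 to 0.59). Cdca8 was lower in KO sham than in WT sham (log2 -0.43 ± 0.13, adjusted p = 0.0298), a call lost in 6 of the 8 leave-one-out fits (range -0.46 to -0.38) and in 1 of 12 other settings.

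Incenp stood at 56.8, 81.4, 68.2 and 54.99 CPM in KO MI and at 47.5, 44.6, 47.6 and 51.2 CPM in KO sham. For Incenp, WT MI gave 68.4, 74.1, 51.5 and 69.3 CPM and WT sham 62.8, 56.1, 69.1 and 44.4 CPM. Incenp is the scaffold of the complex. KO MI lay above KO sham without overlap, while WT sham replicate 4 lay below all KO sham values. Incenp rose 1.37-fold in KO MI (log2 0.45 ± 0.14, adjusted p = 0.0302), a call lost in 6 of the 8 leave-one-out fits (range 0.33 to 0.52) and in 3 of 12 other settings, and did not pass in KO sham against WT sham (log2 -0.28 ± 0.14, adjusted p = 0.166).

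Of the 4 spindle checkpoint genes, Bub1b rose in KO MI and none was called between KO sham and WT sham. Bub1b stood at 55.4, 65.1, 56.3 and 50.3 CPM in KO MI and at 42.04, 47.6, 44.2 and 44.9 CPM in KO sham. For Bub1b, WT MI gave 54.5, 73.8, 50.5 and 61.1 CPM and WT sham 51.2, 51.4, 54.9 and 47.8 CPM. Bub1b encodes BubR1, part of the complex that blocks anaphase, and its KO sham values lay below those of every other library. The rise in KO MI was 1.27-fold (log2 0.35 ± 0.10, adjusted p = 0.0292) and was lost in 5 of the 8 leave-one-out fits (range 0.27 to 0.39) and in 1 of 12 other settings. In KO sham against WT sham Bub1b did not pass (log2 -0.20 ± 0.10, adjusted p = 0.198). The checkpoint kinases Bub1 and Ttk (log2 0.40 and 0.45) and Mad2l1 (0.32) did not pass in KO MI over KO sham; in KO sham over WT sham their log2 fold changes were -0.42, -0.38 and -0.15.

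Of the 6 kinetochore and centromere genes, Nuf2 and Ndc80 of the Ndc80 complex, which grips the spindle fibres, rose in KO MI, and Nuf2 fell in KO sham against WT sham. Nuf2 stood at 31.7, 42.2, 39.04 and 42.8 CPM in KO MI and at 29.3, 28.01, 26.1 and 26.1 CPM in KO sham. For Nuf2, WT MI gave 37.9, 52.5, 31.03 and 40.2 CPM and WT sham 38.3, 37.02, 37.9 and 30.8 CPM. Nuf2 lay below all KO MI and all WT sham values in every KO sham library. Nuf2 rose 1.42-fold in KO MI (log2 0.51 ± 0.13, adjusted p = 0.0122), in all 8 leave-one-out fits (log2 0.45 to 0.59). Nuf2 was lower in KO sham than in WT sham (log2 -0.40 ± 0.13, adjusted p = 0.0450), a call lost in 7 of the 8 leave-one-out fits (range -0.46 to -0.37) and in 3 of 12 other settings.

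Ndc80 stood at 21.2, 24.4, 22.6 and 29.2 CPM in KO MI and at 18.4, 18.01, 15.99 and 19.3 CPM in KO sham. For Ndc80, WT MI gave 22.1, 27.2, 17.4 and 24.03 CPM and WT sham 25.4, 19.9, 24.6 and 18.9 CPM. KO MI lay above KO sham without overlap, and KO sham and WT sham overlapped. Ndc80 rose 1.36-fold in KO MI (log2 0.44 ± 0.13, adjusted p = 0.0302), a call lost in 5 of the 8 leave-one-out fits (range 0.34 to 0.50) and in 1 of 12 other settings, and did not pass in KO sham against WT sham (log2 -0.31 ± 0.14, adjusted p = 0.128). The histone variant of the centromere, Cenpa (log2 0.09), its chaperone Hjurp (0.20), the motor Cenpe (0.29) and Cenpf (-0.10) did not pass in KO MI over KO sham. In KO sham over WT sham their log2 fold changes were -0.08, 0.04, -0.15 and 0.11, and none passed.

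Of the 8 mitotic kinesins, motors that move along spindle fibres or take them apart, 2 rose in KO MI (Kif2c and Kif22) and 2 fell in KO sham against WT sham (Kif2c and Kif22). Kif2c stood at 21.3, 32.1, 24.1 and 16.9 CPM in KO MI and at 13.9, 14.5, 13.4 and 11.8 CPM in KO sham. For Kif2c, WT MI gave 21.4, 31.3, 19.8 and 24.1 CPM and WT sham 19.5, 18.6, 22.2 and 20.01 CPM. Kif2c encodes MCAK, which shortens fibres at faulty attachments, and its KO sham values lay below those of every other library. It had the largest rise of the 49 genes, 1.76-fold in KO MI (log2 0.82 ± 0.16, adjusted p = 0.00307), in all 8 leave-one-out fits (log2 0.63 to 0.94). Kif2c was lower in KO sham than in WT sham (log2 -0.58 ± 0.17, adjusted p = 0.0233), a call that ended without WT sham replicate 3 (-0.53), KO sham replicate 3 (-0.58) or KO sham replicate 4 (-0.53). Leaving out the 3 libraries with few Y-linked reads ended it as well (-0.63).

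Kif22 stood at 36.4, 49.8, 49.01 and 34.2 CPM in KO MI and at 30.8, 32.5, 30.6 and 28.5 CPM in KO sham. For Kif22, WT MI gave 38.99, 56.5, 32.6 and 42.9 CPM and WT sham 40.7, 40.8, 45.9 and 39.3 CPM. Kif22 pushes chromosome arms towards the spindle's equator, and its KO sham values lay below those of every other library. Kif22 rose 1.38-fold in KO MI (log2 0.47 ± 0.14, adjusted p = 0.0295), a call lost in 6 of the 8 leave-one-out fits (range 0.38 to 0.55). Kif22 was lower in KO sham than in WT sham (log2 -0.45 ± 0.14, adjusted p = 0.0402), a call lost in 8 of the 8 leave-one-out fits (range -0.48 to -0.40) and in 1 of 12 other settings. The other 6 kinesins were not called: Kif11, which separates the spindle poles, had a log2 fold change of 0.23 in KO MI over KO sham and -0.27 in KO sham over WT sham. Kif23, a subunit of the midzone complex centralspindlin, had 0.35 and -0.31 in the same comparisons, Kif20a 0.34 and -0.33, Kif4 0.38 and -0.36, Kif20b 0.24 and 0.01, and Kif14 0.15 and -0.07.

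Of the 6 spindle and microtubule proteins, 2 rose in KO MI (Tpx2 and Tacc3) and 2 fell in KO sham against WT sham (Tpx2 and Tacc3). Tpx2 stood at 61.2, 80.7, 69.9 and 58.1 CPM in KO MI and at 47.8, 46.7, 46.8 and 40.9 CPM in KO sham. For Tpx2, WT MI gave 64.4, 88.1, 54.2 and 66.00 CPM and WT sham 62.3, 59.8, 67.1 and 57.2 CPM. Tpx2 switches on Aurora A on the spindle, and its KO sham values lay below those of every other library. Tpx2 rose 1.48-fold in KO MI (log2 0.57 ± 0.12, adjusted p = 0.00507), in all 8 leave-one-out fits (log2 0.47 to 0.63). Tpx2 was lower in KO sham than in WT sham (log2 -0.44 ± 0.12, adjusted p = 0.0226), a call that ended without WT sham replicate 3 or KO sham replicate 4 (-0.39 each). That call also ended without the 3 libraries with few Y-linked reads (-0.44).

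Tacc3 stood at 53.4, 73.9, 62.3 and 51.1 CPM in KO MI and at 44.6, 43.7, 45.5 and 42.5 CPM in KO sham. For Tacc3, WT MI gave 54.2, 83.03, 53.00 and 61.97 CPM and WT sham 63.3, 63.2, 67.3 and 54.2 CPM. Tacc3 steadies bundles of spindle fibres. All other libraries lay above the highest KO sham value. Tacc3 rose 1.36-fold in KO MI (log2 0.45 ± 0.13, adjusted p = 0.0238), a call lost in 5 of the 8 leave-one-out fits (range 0.33 to 0.51) and in 1 of 12 other settings. Tacc3 was lower in KO sham than in WT sham (log2 -0.49 ± 0.13, adjusted p = 0.0155), in all 8 leave-one-out fits (log2 -0.55 to -0.45) but not without the 3 libraries with few Y-linked reads (-0.48). Prc1, which bundles the fibres of the midzone (0.43), Nusap1 (0.42), Ckap2 (0.33) and Hmmr (0.32) did not pass in KO MI over KO sham; in KO sham over WT sham their log2 fold changes were -0.38, -0.29, -0.19 and -0.24, and none passed.

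Of the 4 genes of anaphase and mitotic exit, Cdc20 and Ube2c rose in KO MI. Cdc20 stood at 69.7, 97.95, 82.6 and 68.5 CPM in KO MI and at 61.4, 62.7, 61.1 and 55.5 CPM in KO sham. For Cdc20, WT MI gave 70.4, 114, 71.3 and 79.6 CPM and WT sham 72.3, 66.7, 70.4 and 70.96 CPM. Cdc20 activates the anaphase-promoting complex, and its KO sham values lay below those of every other library. Cdc20 rose 1.32-fold in KO MI (log2 0.40 ± 0.13, adjusted p = 0.0413), a call lost in 6 of the 8 leave-one-out fits (range 0.29 to 0.47) and in 3 of 12 other settings. In KO sham against WT sham it did not pass (log2 -0.22 ± 0.13, adjusted p = 0.266).

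Ube2c stood at 46.4, 81.8, 58.4 and 61.3 CPM in KO MI and at 41.8, 43.2, 33.03 and 41.1 CPM in KO sham. For Ube2c, WT MI gave 58.1, 119.9, 60.3 and 69.9 CPM and WT sham 53.2, 71.2, 67.7 and 65.4 CPM. Ube2c is the enzyme that starts the ubiquitin chains of that complex, and its KO sham values lay below those of every other library. WT MI replicate 2 was the highest library. Ube2c rose 1.56-fold in KO MI (log2 0.64 ± 0.21, adjusted p = 0.0447), a call lost in 7 of the 8 leave-one-out fits (range 0.48 to 0.75) and in 3 of 12 other settings. Ube2c was lower in KO sham than in WT sham (log2 -0.69 ± 0.21, adjusted p = 0.0336), a call lost in 7 of the 8 leave-one-out fits (range -0.78 to -0.61) and in 2 of 12 other settings. Securin (Pttg1), which holds back the cohesin-cutting enzyme, and that enzyme, separase (Espl1), did not pass: their log2 fold changes were -0.08 and 0.29 in KO MI over KO sham and -0.08 and -0.23 in KO sham over WT sham.

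In the main fit, none of the 4 cytokinesis genes was called in any comparison, though some alternatives called Racgap1, Cit or Anln. In KO MI over KO sham, limma voom and the fit of only the compared groups were among those that called Racgap1. Cit was called there with the length and GC correction. In KO sham over WT sham, limma voom and the fit of only the compared groups called both Anln and Racgap1. Anln stood at 46.6, 75.99, 54.8 and 56.04 CPM in KO MI and at 45.4, 51.2, 48.1 and 49.1 CPM in KO sham. For Anln, WT MI gave 50.8, 79.7, 51.5 and 69.6 CPM and WT sham 65.5, 56.7, 65.05 and 53.2 CPM. Anln encodes anillin, the scaffold of the contractile ring. KO MI overlapped KO sham, and all KO sham values lay below all WT sham values. Neither difference passed (log2 0.27 ± 0.14, adjusted p = 0.209 for KO MI over KO sham; log2 -0.31 ± 0.14, adjusted p = 0.147 for KO sham over WT sham). Racgap1, the partner of Kif23 in centralspindlin, had a log2 fold change of 0.35 in KO MI over KO sham and -0.28 in KO sham over WT sham, and no overlap between the groups in either. Ect2, which starts the contractile ring at the midline, had 0.06 and -0.04, and Cit 0.26 and -0.13.

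In the annotation used, 13 of the 49 genes overlap a gene on the opposite strand, among them the called genes Ccna2, Cdc20, Cdca8, Kif22, Plk1, Tacc3 and Ube2c. No strand setting is given, so reads in the shared bases may have been left out as ambiguous or counted to the wrong gene. Foxm1 and Top2a overlap other genes on the same strand.

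WT MI against WT sham shows how these genes stand after injury in hearts that keep the receptor. None of the 49 was called by edgeR, where 2.25% of all tested genes were. In edgeR 6 had an unadjusted p under 0.05, against 15.0% of all tested genes, and neither DESeq2 nor limma voom with sample quality weights called any. The log2 fold change was positive for 44 of 49, with a median of 0.13, against -0.01 over all tested genes, and it was -0.03 without WT MI replicate 2. In 2 genes all 4 WT MI libraries lay above all 4 WT sham libraries, as for 4.5% of tested genes: Aurka (log2 0.45 ± 0.17, adjusted p = 0.207) and the centromere chaperone Hjurp (log2 0.29 ± 0.09, adjusted p = 0.106). Hjurp stood at 68.8, 78.3, 70.7 and 74.2 CPM in WT MI and 62.3, 52.8, 68.2 and 54.7 CPM in WT sham. It was called with the length and GC correction, and Kif20b (log2 0.40 ± 0.14, adjusted p = 0.138) without WT MI replicate 3. The division genes spread widely within WT MI: the summed level was 3274 CPM in replicate 2 and 2028 CPM in the lowest library. Of the marker lists, 5 of 7 erythroid and 1 of 5 epicardium markers fell in WT MI and 2 of 8 leukocyte markers rose; their part was not tested.

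Knockout against wild type after infarction gave no called gene among the 49 in edgeR, DESeq2 or limma voom with sample quality weights, where edgeR called 0.0149% of all tested genes. None had an unadjusted p under 0.05 in edgeR, against 4.76% of all tested genes. The log2 fold changes lay between -0.32 for Ube2c and 0.10 for Ndc80, with a median of -0.08 (0.07 without WT MI replicate 2), and no gene separated KO MI from WT MI without overlap, as 1.09% (higher) and 1.02% (lower) of tested genes did. Ube2c had 46.4, 81.8, 58.4 and 61.3 CPM in KO MI and 58.1, 119.9, 60.3 and 69.9 CPM in WT MI, and its standard error of 0.20 was among the larger ones. The smallest unadjusted p was that of Cenpa, 0.0503 (log2 -0.22 ± 0.11, adjusted p = 0.976).

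The interaction asks whether the response to infarction differed between the genotypes; it is the log2 response in knockout minus that in wild type. None of the 49 genes was called by edgeR, where 2.74% of all tested genes were, so the calls in knockout and their absence in wild type were not shown to differ. In edgeR 10 had an unadjusted p under 0.05, against 18.1% of all tested genes. DESeq2 called none and limma voom with sample quality weights, which changes the tool and the weight of each library together, called 12. The difference was positive for 44 of 49 genes, with a median of 0.23, and was largest for Birc5 (log2 0.68 ± 0.21, adjusted p = 0.0958). Without WT MI replicate 2 the median was 0.41 and 11 genes were called, namely Aurkb, Birc5, Ccna2, Ccnb2, Cdk1, Cks2, Kif22, Plk4, Tacc3, Top2a and Tpx2. No other single library left out gave a call. The share of all tested genes called in that fit and in the weighted voom fit is not given here. For the marker lists the interaction was called for 5 of 7 erythroid, 5 of 5 epicardium and 1 of 5 smooth muscle and pericyte markers, all positive, and their part was not tested.

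Further genes of the same processes were described from lists drawn up for this purpose, and the plot of lists shows each gene. The counts below stand beside 8.54% of all tested genes that rose and 16.6% called in either direction in KO MI against KO sham, and 7.74% that fell and 15.3% called in KO sham against WT sham. Of 29 other kinetochore and checkpoint genes 7 rose and none fell in KO MI against KO sham (median log2 0.34, 29 of 29 positive). Cenpm, a subunit of the inner kinetochore, stood at 17.5 ± 2.80 CPM in KO MI and 10.2 ± 1.29 CPM in KO sham (log2 0.77 ± 0.14, adjusted p = 0.00181). Spc24, which anchors the Ndc80 complex, stood at 26.3 ± 2.70 CPM in KO MI and 17.5 ± 1.11 CPM in KO sham (log2 0.59 ± 0.12, adjusted p = 0.00352), and the others that rose were Cenpt (0.51 ± 0.13, adjusted p = 0.0103), Spdl1 (0.64 ± 0.16, adjusted p = 0.0107), Cenpw (0.60), Spc25 (0.52) and Dsn1 (0.38). Between KO sham and WT sham 3 of the 29 fell, a share near that of all tested genes, Cenpm (-0.71 ± 0.15, adjusted p = 0.00330), Spc24 (-0.48 ± 0.12, adjusted p = 0.0122) and Cenpw (-0.48 ± 0.16, adjusted p = 0.0498; ended in 7 of 8 leave-one-out fits and 5 of 12 other settings). Cenpm, Spc24, Cenpt and Spdl1 were called in KO MI in all 8 leave-one-out fits, as were Cenpm and Spc24 in KO sham against WT sham.

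Of 21 other spindle and centrosome genes 4 rose in KO MI (median log2 0.29): Dlgap5 (0.55 ± 0.13, adjusted p = 0.00947), Gtse1 (0.58 ± 0.16, adjusted p = 0.0166), Fam83d (0.55 ± 0.17, adjusted p = 0.0298) and the kinesin Kifc1 (0.46 ± 0.12, adjusted p = 0.0149). The call of Dlgap5 stood in all 8 leave-one-out fits, those of Gtse1 and Kifc1 ended in 2 of them each (both without KO MI replicate 2) and that of Fam83d in 4. Kifc1 (-0.45 ± 0.12, adjusted p = 0.0187) and Gtse1 (-0.48 ± 0.16, adjusted p = 0.0456) were the 2 of 21 that fell in KO sham against WT sham (median -0.26), calls that ended in 2 and in all 8 of these fits. Of 15 anaphase-promoting complex genes Ube2s rose in KO MI (0.44 ± 0.11, adjusted p = 0.00911), an enzyme that lengthens the chains started by Ube2c; it was also lower in KO sham than in WT sham (-0.40 ± 0.11, adjusted p = 0.0149), and both calls stood in all 8 leave-one-out fits. The list's median was 0.07 in KO MI over KO sham. Anapc5 (-0.21 ± 0.07, adjusted p = 0.0461) was lower and Cdc23 (0.21 ± 0.07, adjusted p = 0.0495) higher in KO sham than in WT sham, and each call ended in 7 of 8 leave-one-out fits.

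Among the condensin, cytokinesis and brake lists, genes were called in both directions in KO MI. Of 16 condensin and cohesin genes Cdca5, which protects cohesion, rose in KO MI (0.62 ± 0.19, adjusted p = 0.0311; ended in 5 of 8 leave-one-out fits and 2 of 12 other settings). The cohesin loader Nipbl (-0.35 ± 0.09, adjusted p = 0.0141) and the cohesin-releasing Wapl (-0.31 ± 0.08, adjusted p = 0.0184) fell, calls that ended in 2 and 3 of 8 leave-one-out fits and with the length and GC correction (log2 -0.08 and -0.13). Wapl was higher in KO sham than in WT sham (0.32 ± 0.08, adjusted p = 0.0158; ended in 3 of 8 leave-one-out fits and 2 of 12 other settings). Of 15 tested genes in the list of other cytokinesis genes 1 rose and 2 fell in KO MI, with a median of 0.00. The septin Sept11 rose (0.26 ± 0.09, adjusted p = 0.0451; ended in 7 of 8 leave-one-out fits and 4 of 12 other settings). Arhgef2 was higher in KO sham than in WT sham (0.24 ± 0.08, adjusted p = 0.0379; ended in 7 of 8 leave-one-out fits and 2 of 12 other settings).

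Of 15 tested brakes on division 3 rose and 2 fell in KO MI (median log2 0.14). Gadd45a, a stress-induced inhibitor of Cdk1, stood at 12.6 ± 2.44 CPM in KO MI and 21.7 ± 2.33 CPM in KO sham (log2 -0.78 ± 0.13, adjusted p = 0.000786), lower in KO MI. It was higher in KO sham than in WT sham, at 21.7 ± 2.33 CPM in KO sham and 12.1 ± 1.004 CPM in WT sham (log2 0.84 ± 0.13, adjusted p = 0.000344), and both calls stood in all 8 leave-one-out fits. Rbl2, the p130 subunit of DREAM, was likewise lower in KO MI than in KO sham (-0.32 ± 0.10, adjusted p = 0.0337; ended in 5 of 8 leave-one-out fits and 3 of 12 other settings) and higher in KO sham than in WT sham (0.48 ± 0.10, adjusted p = 0.00428; called in all 8 leave-one-out fits). The 3 that rose were the Cdk4 inhibitor Cdkn2d (0.39 ± 0.10, adjusted p = 0.0119; called in all 8 leave-one-out fits and ended in 2 of 12 other settings), the antiproliferative Btg2 (0.53 ± 0.18, adjusted p = 0.0497; ended in 6 of 8 leave-one-out fits and 5 of 12 other settings) and Pkmyt1 (0.39), a kinase that holds Cdk1 inactive. Cdkn2d was lower in KO sham than in WT sham (-0.31 ± 0.10, adjusted p = 0.0399; ended in 6 of 8 leave-one-out fits and 5 of 12 other settings).

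Of 10 genes of the DREAM and MuvB complexes 1 rose in KO MI, a share near that of all tested genes, namely Mybl2, which encodes B-Myb (0.68 ± 0.20, adjusted p = 0.0259; ended in 5 of 8 leave-one-out fits). Tfdp1 (-0.31 ± 0.09, adjusted p = 0.0310) and Rbbp4 (-0.23 ± 0.07, adjusted p = 0.0423) were lower in KO sham than in WT sham, calls that ended in 5 and 7 of 8. The list's median was 0.09 in KO MI over KO sham and -0.07 in KO sham over WT sham. Among all the genes of these 7 lists none was called in WT MI against WT sham or in KO MI against WT MI.

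**Figure D5:**
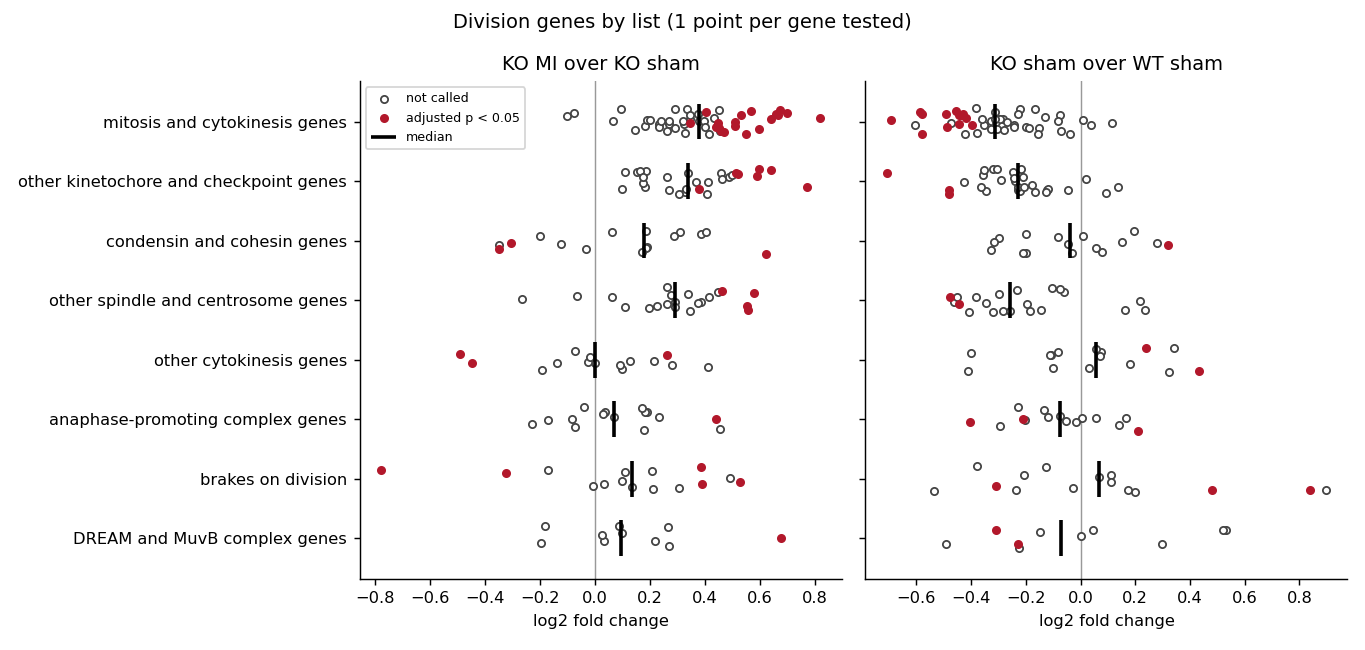
Log2 fold change (horizontal axis) of each tested gene of the 49 and of 7 further lists of division genes (vertical axis), in KO MI over KO sham (left) and KO sham over WT sham (right). Filled points passed an adjusted p of 0.05 and black bars are medians; the median of the 49 is 0.38 on the left and -0.31 on the right, and that of other cytokinesis genes is 0.00 and 0.06.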

How the data were processed

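RNA of neonatal mouse ventricles was sequenced in 16 libraries, 4 in each of 4 groups given by the labels. The deposited values are raw read counts per Ensembl gene that the authors made, per the submitters' processing notes on build GRCm39 with tools that include HISAT2 2.2.1 and HTSeq 0.13.5 beside cutadapt 3.4, bcl2fastq 2.17, FastQC and DESeq2. Their order, the strand setting and the annotation release are not given in the sources used here. The 5 lines that name no gene were left out; reads in no gene were 23.7 to 28.2% and ambiguous reads 1.56 to 2.08% of each library. Transcript lengths, GC content and overlaps came from the GENCODE annotation of GRCm38. Gene names came from a list of symbols by Ensembl gene ID, with RefSeq used where that list had none. No coordinates are given beside those of the RefSeq promoter windows.

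From the counts, edgeR 4.0.16 in R 4.3.3 was run with filterByExpr (13412 of 22468 genes kept), TMM scaling and 1 robust quasi-likelihood fit of all 16 libraries with 12 residual degrees of freedom. P-values were adjusted over all tested genes by the Benjamini-Hochberg method, and a gene was called at an adjusted p under 0.05. Unless an alternative is named, calls and genes that did not pass refer to this main fit. Some genes not called in it were called under alternatives, and these gains are not all listed. CPM use the TMM-scaled totals, and fold changes are log2 with their standard errors. Each standard error was derived from the test, as the size of the log2 fold change over the square root of its F statistic. It thus rests on the spread estimated over all 16 libraries. Alternatives were DESeq2 1.42.0, limma 3.58.1 (voom with sample quality weights), other scalings and filters, a length and GC correction, a replicate block, subsets of groups or libraries, and each library left out in turn. Values in every library are given for up to 3 called members of each role, those with the smallest unadjusted p, and for Mki67, Ccnb1, Aurkb and Anln; the other members are given by fold change or range, and of each further list the called genes. The members and the gene lists were chosen with earlier results of these data known. Values of 2 genes of the list of other cytokinesis genes are not reported here, though the list's counts and median include them.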

Additional observations from a re-analysis of the deposited data

Results flagged for a closer look

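A single library stood far from the other 3 of its group, by Dixon's test, in 10 of 200 combinations (5.0%), formed by the 49 genes and their summed level in each of the 4 groups, where chance alone gives about 1 in 20. In KO MI, replicate 2 was high for Mki67 (276 CPM, others 189 to 204) and Cenpf (86.4 CPM, others 62.3 to 66.2). In KO sham, replicate 4 was low for Cks2 (16.8 CPM, others 21.6 to 22.1) and Tpx2 (40.9 CPM, others 46.7 to 47.8), and replicate 3 was low for Hmmr (21.7 CPM, others 26.4 to 27.3). In WT MI, replicate 2 was high for Cks2 (47.5 CPM, others 31.4 to 32.9) and replicate 1 for Pttg1 (48.0 CPM, others 43.0 to 43.9). In WT sham, replicate 4 was low for Mad2l1 (26.1 CPM, others 31.8 to 32.8) and Kif20a (52.7 CPM, others 62.6 to 64.2), and replicate 1 for Cenpa (77.4 CPM, others 90.7 to 91.0).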

How the results depend on the processing

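The number of the 49 genes called in KO MI against KO sham, 19, was 33 with limma voom and sample quality weights, 30 with only the compared groups fitted and 8 to 27 with single libraries left out. It was 16 with the length and GC correction, 12 of them among the 19, and 16 without a filter on low counts. Without haemoglobin and mitochondrially encoded genes it was 17. The share of all tested genes called under each alternative is not given here. The 13 called in KO sham against WT sham became 29 with limma voom and sample quality weights, 29 with only the compared groups fitted, 3 without the 3 libraries with few Y-linked reads and 3 to 11 with single libraries left out. The weighted voom fit changes the tool and the weight of each library together. In WT MI against WT sham, 1 gene instead of none was called with the length and GC correction, and 0 to 1 with single libraries left out. The interaction gave 12 calls with limma voom and sample quality weights and 0 to 11 with single libraries left out. Knockout against wild type after infarction gave none in any of the 20 alternatives. Without haemoglobin and mitochondrial genes the mean summed level was 2147 CPM in KO sham and 2609 CPM in WT sham. Leaving these genes out lowers the library totals, which raises the CPM of the remaining genes. In KO MI and WT MI the highest mean over the 3 alternatives tried for the sums was 2733 and 2888 CPM. The median over the 49 genes stayed between 0.30 and 0.48 in KO MI over KO sham and between -0.37 and -0.28 in KO sham over WT sham in all alternatives run. Of the values of named genes under alternatives, 1362 stayed on their side of the threshold in the same direction, 328 of the same direction no longer passed, 44 passed that had not, and none of the called ones changed sign; the cause was not tested.

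The groups share replicate numbers, but nothing in the labels says that a number marks a shared litter or day. Of 24 pairs of same-numbered libraries 4 had a correlation of deviations over 0.1 (-0.0968 to 0.475). When correlations with libraries of other groups were averaged by replicate number, 6 of 16 libraries had the highest mean for their own number. With the replicate block, 25 genes were called in KO MI against KO sham and 18 in KO sham against WT sham, and none in the other 3 comparisons. With the block and the length and GC correction, the counts were 29 in KO MI against KO sham, 24 in KO sham against WT sham, 1 in WT MI against WT sham and 1 in the interaction. For both of these fits the share of all tested genes called is not given here. Whether the changes in count are particular to the mitosis and cytokinesis genes was not tested.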
